A study of Mus musculus with 12 samples.

Results

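The genes described here encode the target of 5-fluorouracil (5-FU) and the enzymes that activate it, break it down, supply thymidylate or remove uracil from DNA. The genes named for this were Tyms, Dpyd, Umps, Upp1, Tymp, Tk1, Dut, Ung and Rrm2, and rows were taken by gene name from a table of 28999 genes. Of these 9 genes, 8 had 1 row each. Dpyd, the dihydropyrimidine dehydrogenase that starts the breakdown of the drug, was not analysed here.

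5-FU is a uracil analogue. Cells turn it into ribonucleotides, which enter RNA, and into a deoxyribonucleotide that blocks thymidylate synthase, the enzyme that makes the thymine nucleotide from dUMP with a folate cofactor. When thymidylate runs short, dUTP and its fluorinated form can be built into DNA, where dUTPase limits their supply and uracil-DNA glycosylase cuts the base out. In blood formation the drug mainly kills cycling cells, and most of the stem cells that sustain it for life are at rest in the unperturbed marrow.

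RNA was sequenced from mouse bone marrow cells labelled LT-HSCs (long-term haematopoietic stem cells), with 3 libraries in each of 4 groups: Trim47-/- mice after 5-FU, wild-type mice after 5-FU, untreated Trim47-/- mice and untreated wild-type mice. The labels give 10 days of 5-FU and no dose, and give neither the sorting gate nor the deleted part of Trim47, a gene for a tripartite-motif protein of the ubiquitin ligase type. Strain, age and sex of the mice, and the other alleles they carry, were likewise not given in the sources used here. No label ties the 3 libraries of a group to separate animals, so each p-value covers library-to-library spread alone, and that spread may be technical.

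Total counts ran from 13919649 to 13953510 in Trim47-/- libraries after 5-FU and from 15111811 to 15151589 in wild type after 5-FU, and from 20661120 to 20703198 in untreated Trim47-/- and 14828152 to 14885673 in untreated wild type. Trim47 RNA stood at 10.1, 12.2 and 11.6 CPM in Trim47-/- libraries after 5-FU, against 38.1, 33.3 and 34.7 CPM in wild type after 5-FU. In untreated libraries it stood at 23.7, 18.9 and 16.6 CPM in Trim47-/-, against 24.6, 23.8 and 24.7 CPM in wild type. CPM here are counts scaled to the effective (TMM) library size. Trim47 overlaps Trim65 on the same strand, so its counts check the genotype only in part, and the groups are named as labelled. Within groups, 11.7% to 13.2% of genes varied beyond the 1% level of counting noise. The median chi-square per degree of freedom was 0.997 to 1.07, against 0.693 for counting noise alone. For Rrm2, Umps and Dut it ran from 0.0642 to 1.93 over the groups (chi-square p of 0.145 or more). For these genes the libraries of a group thus differed little beyond counting noise.

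After 5-FU, 6 of the 8 measured genes were higher in Trim47-/- than in wild-type libraries, none was lower, and Upp1 and Tymp did not pass. The 6 were Tyms, the drug target, Umps and Tk1 of drug activation, Dut and Rrm2 of deoxynucleotide supply, and Ung of uracil removal. Their log2 changes ran from 0.18 to 0.50. A gene passed at an adjusted p under 0.05 (edgeR's quasi-likelihood test, Benjamini-Hochberg over 16319 genes), and 54.7% of all genes tested did so in this comparison, 27.2% higher and 27.6% lower. The 3 libraries of each genotype did not overlap for 7 of the 8 genes, all but Tymp, and for 61.3% of all genes. With total counts in place of TMM, 3486 genes were higher and 5361 lower, against 4434 and 4499. The median log2 change was 0.31 over the 8 genes and 0 over all genes.

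In untreated libraries, 2 of the 8 were higher in Trim47-/- (Tymp and Rrm2), 1 was lower (Upp1) and 5 did not pass, with 33% of all genes called, 17.6% higher and 15.4% lower. The groups did not overlap for 4 of the 8 and for 47.9% of all genes. The median log2 change of the 8 was 0.04, against 0.028 over all genes. 5-FU was followed by higher levels of 5 of the 8 in Trim47-/- (Tyms, Umps, Tk1, Dut and Rrm2) and a lower level of 1 (Upp1), with 60.5% of all genes called (29.6% higher and 30.8% lower) and a median of 0.16 against -0.005. There 7 of the 8 and 66.6% of all genes did not overlap. In wild type 1 was higher after 5-FU (Rrm2) and 5 were lower (Tyms, Umps, Upp1, Dut and Ung), with 50.6% of all genes called (25.2% higher and 25.4% lower) and a median of -0.20 against 0.012, and 7 of the 8 and 58.9% of all genes did not overlap. The interaction, which is the log2 change with 5-FU in Trim47-/- minus that in wild type, was positive for Tyms, Umps, Upp1 and Dut and negative for Tymp. Of all genes, 54.9% passed the interaction, 26.4% with a positive and 28.5% with a negative value, and its median was 0.34 over the 8 and -0.026 over all genes. With total counts only, 5762 genes were higher and 3165 lower with 5-FU in wild type, against 4110 and 4150, and the median of all genes there moved by 0.103. These comparisons share groups of libraries, so their counts are not independent of each other.

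In size, the changes of the 8 genes ranged from Upp1 with 5-FU in wild type, which 14.6% of all genes exceeded, to Dut in untreated libraries, which 97.4% exceeded. In the test against a change of 1.5-fold (edgeR's glmTreat), 0 of the 8 passed in each of the 5 comparisons, and DESeq2 was not run in that form. At an unadjusted p under 0.05 in that test the count was 1 for 5-FU in wild type, where Upp1 came nearest (adjusted p = 0.0834), and 0 in the other comparisons. Of all 16319 genes, 2347 reached that unadjusted level for 5-FU in wild type and 3298 for 5-FU in Trim47-/-. For Trim47-/- against wild type 2455 did so after 5-FU and 999 in untreated libraries, and for the interaction 3996. At an adjusted p under 0.05, 8.67% of all genes passed the 1.5-fold test for Trim47-/- against wild type after 5-FU, 2.76% in untreated libraries, 14.8% for 5-FU in Trim47-/-, 9.82% for 5-FU in wild type and 17.9% for the interaction.

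**Figure D1:**
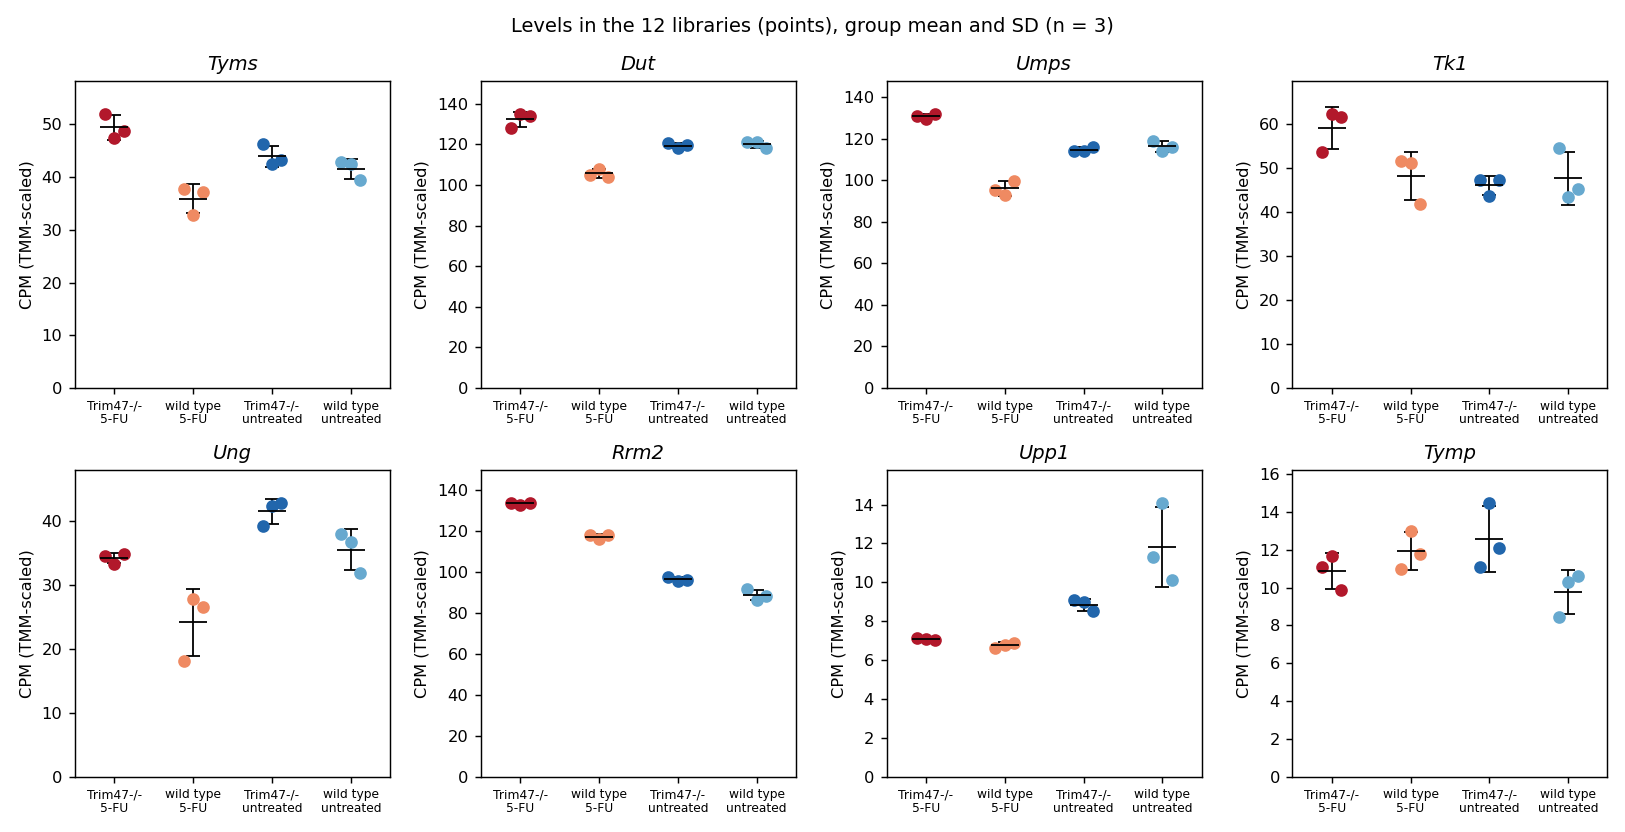
Levels of the 8 measured genes (CPM, TMM-scaled, axes from 0) in each library, grouped from left to right as Trim47-/- after 5-FU, wild type after 5-FU, untreated Trim47-/- and untreated wild type, with points for libraries and bars for mean ± SD (n = 3). Tyms, Umps and Dut were highest in Trim47-/- after 5-FU and lowest in wild type after 5-FU, while Rrm2 was higher after 5-FU in both genotypes and Upp1 was highest in untreated wild type.

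Tyms encodes thymidylate synthase, the enzyme that the drug's deoxyribonucleotide blocks. It lies on chromosome 5 at 30058202 to 30073617, minus strand (GRCm38, the build of all coordinates here). It had 52.0, 47.5 and 48.8 CPM in Trim47-/- libraries after 5-FU, against 37.8, 32.8 and 37.1 CPM in wild-type libraries after 5-FU. Untreated libraries had 46.2, 42.4 and 43.2 CPM in Trim47-/-, against 42.8, 42.5 and 39.4 CPM in wild type. Every Trim47-/- library after 5-FU stood above all the others, every wild-type library after 5-FU stood below all the others, and the untreated groups overlapped. After 5-FU, Tyms was 1.38-fold higher in Trim47-/- than in wild type (log2 0.46, SE 0.0631, adjusted p = 7.98e-05), and 33.5% of all genes had a larger change in that comparison. The untreated genotypes differed by 0.08 (SE 0.0623, adjusted p = 0.364), which did not pass.

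With 5-FU, Tyms rose by 0.17 in Trim47-/- (SE 0.0621, adjusted p = 0.0333) and fell by 0.21 in wild type (SE 0.0633, adjusted p = 0.016), and the interaction of 0.38 passed (SE 0.0886, adjusted p = 0.00344). Both single responses depended on single libraries. The rise in Trim47-/- lost its call without untreated replicate 2 or 3 (adjusted p = 0.109 and 0.0889) and without 5-FU replicate 1 or 3 (0.123 and 0.0557), and with no filter on low counts (0.132), in a range of 0.0162 to 1 over 20 alternatives. The fall in wild type lost it without untreated replicate 1 or 2 (0.056 and 0.0519), without 5-FU replicate 2 (0.0675) and with total counts only (0.17), in a range of 0.00803 to 1. The interaction kept its call without each library. The pseudogene Tyms-ps on chromosome 10, whose reads could be exchanged with those of Tyms, stood between 1.20 and 2.55 CPM in the 12 libraries.

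Umps encodes UMP synthase, the enzyme of the last steps of de novo uridylate synthesis, whose orotate phosphoribosyltransferase activity also turns 5-FU directly into its ribonucleotide. Its gene lies on chromosome 16 at 33954782 to 33967038, minus strand, and overlaps the antisense gene Gm15829. Umps had 131, 129.7 and 132 CPM in Trim47-/- after 5-FU, against 95.3, 93.1 and 99.8 CPM in wild type after 5-FU. In untreated libraries it had 114, 114 and 116 CPM in Trim47-/-, against 119, 114 and 116 CPM in wild type. As with Tyms, the groups after 5-FU lay on either side of all untreated libraries, and the untreated groups overlapped. Trim47-/- exceeded wild type after 5-FU by 0.45 (SE 0.0302, adjusted p = 2.68e-07), a 1.36-fold difference. Umps rose by 0.19 with 5-FU in Trim47-/- (SE 0.0299, adjusted p = 0.000178) and fell by 0.28 in wild type (SE 0.0302, adjusted p = 1.57e-05). The interaction of 0.47 (SE 0.0425, adjusted p = 3.02e-06) passed, and the untreated difference of -0.02 did not (SE 0.0299, adjusted p = 0.683).

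The sequences before the start of Tyms and Umps are shown because both RNAs were highest and lowest in the same groups, and that of Rrm2 because its order of groups differed. They are the bases of a 250-base window before the start in RefSeq (GRCm38.p6) that lie outside the annotated gene, written 5′ to 3′ on the strand of the gene, which is chr5:30073626-30073875 (minus) for Tyms, chr16:33967039-33967288 (minus) for Umps and chr12:24708004-24708240 (plus) for Rrm2. Capitals mark the E box CACGTG, the GC box GGGCGG and the CCAAT box CCAAT, on either strand.
Tyms: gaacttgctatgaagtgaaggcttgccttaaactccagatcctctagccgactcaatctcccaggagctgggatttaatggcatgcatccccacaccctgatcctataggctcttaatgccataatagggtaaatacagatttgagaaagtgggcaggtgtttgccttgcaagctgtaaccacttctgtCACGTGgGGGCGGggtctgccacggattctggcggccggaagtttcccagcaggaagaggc
Umps: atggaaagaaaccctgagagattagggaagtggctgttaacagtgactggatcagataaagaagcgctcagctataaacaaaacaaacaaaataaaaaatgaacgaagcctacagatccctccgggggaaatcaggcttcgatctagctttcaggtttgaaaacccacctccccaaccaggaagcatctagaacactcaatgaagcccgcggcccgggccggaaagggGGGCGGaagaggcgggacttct
Rrm2: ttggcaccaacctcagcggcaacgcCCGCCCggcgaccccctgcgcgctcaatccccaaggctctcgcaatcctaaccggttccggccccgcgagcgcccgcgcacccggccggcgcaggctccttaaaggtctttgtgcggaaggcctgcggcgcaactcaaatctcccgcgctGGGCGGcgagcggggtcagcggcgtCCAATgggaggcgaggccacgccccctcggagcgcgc
The Tyms window held 1 E box directly upstream of 1 GC box, the Umps window held 1 GC box, and the Rrm2 window held 2 GC boxes and 1 CCAAT box. Among 32851 windows of the same length before mouse gene starts, 6.02% held the E box, 32.7% the GC box and 33.8% the CCAAT box. The E2F motifs TTTCGCGC and TTTGGCGC were found in none of the windows of the 8 genes and in 0.654% of all windows. These matches describe letters only.

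Tk1, cytosolic thymidine kinase, salvages thymidine and phosphorylates fluorodeoxyuridine to the nucleotide that blocks thymidylate synthase. It lies on chromosome 11 at 117815526 to 117826092, minus strand, where Afmid and Gm20708 overlap it on the opposite strand. Tk1 had 53.7, 62.4 and 61.6 CPM in Trim47-/- after 5-FU, against 51.7, 51.2 and 41.9 CPM in wild type after 5-FU, and the groups did not overlap. Without the drug it had 47.3, 43.7 and 47.3 CPM in Trim47-/-, against 54.6, 43.4 and 45.2 CPM in wild type, which overlapped with each other. The difference after 5-FU was 0.30 (SE 0.101, adjusted p = 0.0273), and Tk1 alone of the 6 lost this call when single libraries were left out. It missed the threshold without wild-type 5-FU replicate 3 (0.19, adjusted p = 0.139), without Trim47-/- 5-FU replicate 2 or 3 (adjusted p = 0.0845 and 0.0801), with total counts only (0.0874) and with no filter on low counts (0.0984), in a range of 0.0123 to 1 over 20 alternatives. Tk1 rose with 5-FU in Trim47-/- by 0.36 (SE 0.1, adjusted p = 0.00838), while in wild type it differed by 0.02 (SE 0.101, adjusted p = 0.916). The interaction of 0.35 did not pass (SE 0.142, adjusted p = 0.0588). It passed in the DESeq2 test (0.0492) and without untreated wild-type replicate 2 (0.0354), wild-type 5-FU replicate 1 (0.0484) or Trim47-/- 5-FU replicate 1 (0.0331), in a range of 0.0331 to 1.

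The phosphorylases Upp1 and Tymp had the lowest raw levels of the 8 genes and a different pattern. Upp1, uridine phosphorylase, which joins 5-FU to ribose in the reverse of its uridine-cleaving reaction, lies on chromosome 11 at 9118103 to 9136170, plus strand. It had 7.15, 7.10 and 7.03 CPM in Trim47-/- after 5-FU, against 6.63, 6.77 and 6.90 CPM in wild type after 5-FU. Untreated libraries had 9.07, 8.99 and 8.50 CPM in Trim47-/-, against 11.3, 14.1 and 10.1 CPM in wild type. No pair of groups overlapped, with untreated wild type highest and wild type after 5-FU lowest. Upp1 fell with 5-FU by 0.32 in Trim47-/- (SE 0.109, adjusted p = 0.0243) and by 0.80 in wild type (SE 0.108, adjusted p = 7.94e-05), to 0.573 of the untreated level in wild type, the strongest fold change of any of the 8 genes in the 4 pairwise comparisons.

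Untreated Trim47-/- libraries held less Upp1 than untreated wild type (-0.42, SE 0.104, adjusted p = 0.00992), and after 5-FU the difference was 0.07 (SE 0.113, adjusted p = 0.636). That value after 5-FU was -0.01 with total counts only. The Upp1 interaction was 0.48 (SE 0.153, adjusted p = 0.0192) and fell to 0.34 without untreated wild-type replicate 2, the highest library (adjusted p = 0.0551, in a range of 0.00367 to 1). The fall in Trim47-/- lost its call in the DESeq2 test (0.0686), without untreated Trim47-/- replicate 1 or 2 (0.0619 and 0.0574) and without Trim47-/- 5-FU replicate 1, 2 or 3 (0.0527, 0.0561 and 0.0613), in a range of 0.0047 to 1. Counts behind these values were 97 to 203 per library.

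Tymp, thymidine phosphorylase, which converts 5-FU to fluorodeoxyuridine, lies on chromosome 15 at 89371931 to 89377039, minus strand. It overlaps Sco2 on the same strand and Ncaph2 on the other, so its counts may hold reads of these neighbours. Tymp had 11.1, 11.7 and 9.86 CPM in Trim47-/- after 5-FU, against 11, 13 and 11.8 CPM in wild type after 5-FU. In untreated libraries it had 11.1, 14.5 and 12.1 CPM in Trim47-/-, against 8.44, 10.3 and 10.6 CPM in wild type. Only the untreated wild-type libraries stood apart, below untreated Trim47-/- and wild type after 5-FU, though not below Trim47-/- after 5-FU.

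The untreated difference of Tymp was 0.37 (SE 0.122, adjusted p = 0.0392), that after 5-FU -0.13 (SE 0.124, adjusted p = 0.404). The 5-FU responses were -0.21 in Trim47-/- (SE 0.122, adjusted p = 0.168) and 0.29 in wild type (SE 0.124, adjusted p = 0.0732), neither past the threshold, with an interaction of -0.50 (SE 0.174, adjusted p = 0.031). The untreated call was lost without untreated wild-type replicate 1 or 2 (0.141 and 0.0599), untreated Trim47-/- replicate 2 or 3 (0.143 and 0.0582) or wild-type 5-FU replicate 3 (0.0645), in the DESeq2 test (0.0676), with only the 6 libraries compared (0.0885) and with no filter (0.0659), in a range of 0.018 to 1. The interaction was lost without untreated wild-type replicate 1 (0.073), untreated Trim47-/- replicate 2 (0.0697), wild-type 5-FU replicate 2 (0.0722) or Trim47-/- 5-FU replicate 3 (0.0726), in a range of 0.0129 to 0.98. In wild type the 5-FU response passed under some alternatives, among them total counts only (0.0194) and the fit without untreated Trim47-/- replicate 2 (0.0461), in a range of 0.0194 to 1.

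Dut encodes dUTPase, which turns dUTP into dUMP and so both keeps uracil out of DNA and feeds thymidylate synthase. It lies on chromosome 2 at 125247190 to 125258608, plus strand. Dut had 128, 135 and 134 CPM in Trim47-/- after 5-FU, against 105, 108 and 104 CPM in wild type after 5-FU. Without the drug it had 120.5, 118 and 119.5 CPM in Trim47-/-, against 121, 121 and 118 CPM in wild type. The groups after 5-FU again lay on either side of the untreated libraries, which overlapped. Trim47-/- was higher than wild type after 5-FU by 0.32 (SE 0.0278, adjusted p = 2.14e-06). Dut rose by 0.15 with 5-FU in Trim47-/- (SE 0.0276, adjusted p = 0.00071) and fell by 0.18 in wild type (SE 0.0279, adjusted p = 0.000223), with an interaction of 0.33 (SE 0.0392, adjusted p = 2.83e-05). The untreated difference was -0.01 (SE 0.0277, adjusted p = 0.864).

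Rrm2, the S phase subunit of ribonucleotide reductase, which makes deoxyribonucleotides from ribonucleotides, lies on chromosome 12 at 24708241 to 24714146, plus strand. It had 134, 133 and 134 CPM in Trim47-/- after 5-FU, against 118, 116 and 118 CPM in wild type after 5-FU. Untreated libraries had 97.7, 95.9 and 96.2 CPM in Trim47-/-, against 91.6, 86.5 and 88.5 CPM in wild type. No groups overlapped, and both treated groups stood above both untreated groups. Rrm2 rose with 5-FU in both genotypes, by 0.47 in Trim47-/- (SE 0.0263, adjusted p = 3.74e-08) and by 0.40 in wild type (SE 0.0265, adjusted p = 2.06e-07). The interaction of 0.06 did not pass (SE 0.0373, adjusted p = 0.183) and was -0.03 with total counts only. Trim47-/- exceeded wild type by 0.18 after 5-FU (SE 0.0263, adjusted p = 0.000122) and by 0.12 in untreated libraries (SE 0.0265, adjusted p = 0.00494). The untreated call was lost in the DESeq2 test (0.0581) and with only the 6 libraries compared (0.0541), in a range of 0.00175 to 1 over 20 alternatives.

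Ung, the uracil-DNA glycosylase that removes uracil from DNA, lies on chromosome 5 at 114130386 to 114139323, plus strand. It had 34.5, 33.3 and 34.9 CPM in Trim47-/- after 5-FU, against 18.1, 27.8 and 26.5 CPM in wild type after 5-FU. In untreated libraries it had 39.3, 42.4 and 42.9 CPM in Trim47-/-, against 38.0, 36.7 and 31.9 CPM in wild type. Neither pair of genotypes overlapped, and wild-type 5-FU replicate 1 stood well below the other libraries of its group. That group's counts exceeded counting noise more than any other group of the 8 genes, with a chi-square of 18 per degree of freedom. Ung was higher in Trim47-/- than in wild type after 5-FU by 0.50 (SE 0.13, adjusted p = 0.00631), and by 0.34 without wild-type 5-FU replicate 1 (adjusted p = 0.00399, in a range of 0.00113 to 1).

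Ung fell with 5-FU by 0.56 in wild type (SE 0.129, adjusted p = 0.00378), and by 0.38 without that replicate (adjusted p = 0.00195, in a range of 0.000232 to 1). In Trim47-/- the response was -0.28 (SE 0.126, adjusted p = 0.0767). It passed without that wild-type replicate, which enters the shared estimate of spread (adjusted p = 0.00405), and with only the 6 libraries compared (0.00265), in a range of 0.00265 to 1. The untreated difference of 0.23 (SE 0.126, adjusted p = 0.197) also passed without it (0.0216, in a range of 0.0216 to 1). The interaction was 0.28 (SE 0.181, adjusted p = 0.216), and 0.11 without wild-type 5-FU replicate 1 (adjusted p = 0.407, in a range of 0.0911 to 1).

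**Figure D2:**
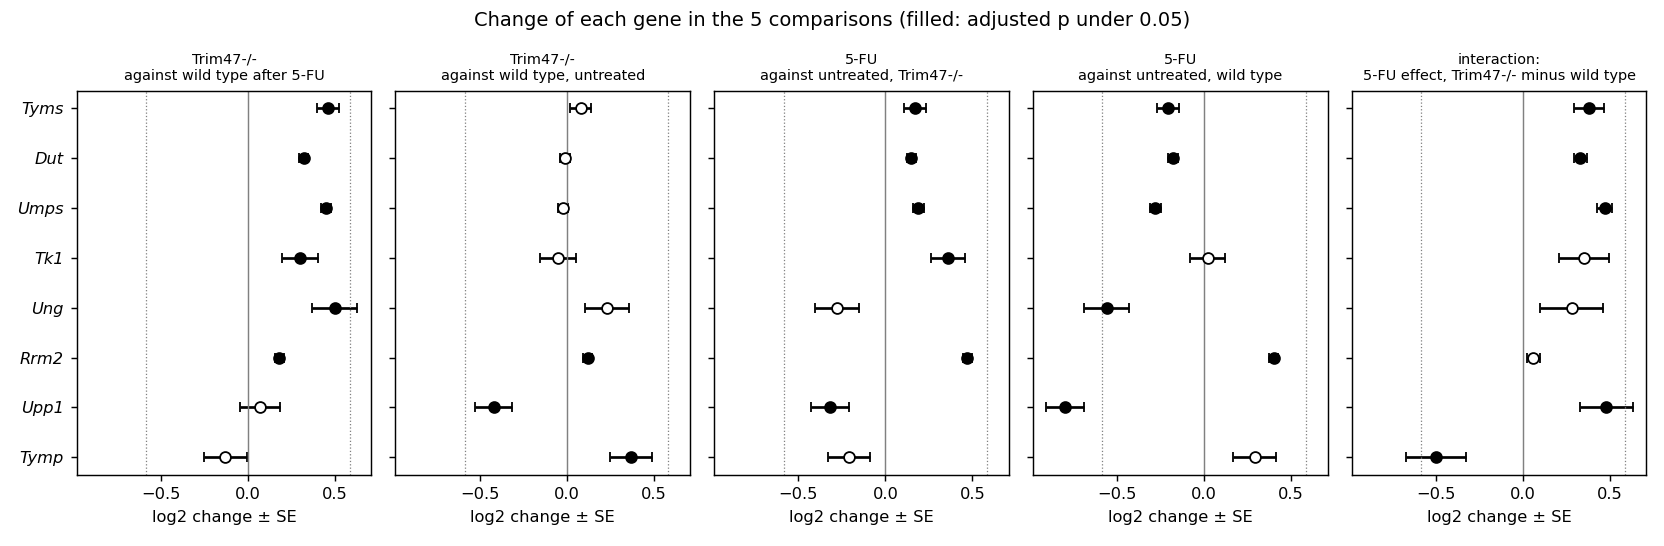
Log2 change ± SE of each measured gene (rows) in the 5 comparisons (panels), filled where the adjusted p was under 0.05, with dotted lines at a 1.5-fold change. After 5-FU the 6 filled points lie between 0.18 and 0.50, and with 5-FU in wild type Upp1 lies farthest from 0, at -0.80.

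Compared per length, Dut was the most abundant of the 8 RNAs in all groups, at 54.8 ± 1.65 CPM per kilobase of exon in Trim47-/- after 5-FU, 43.9 ± 0.731 in wild type after 5-FU, 49.5 ± 0.506 in untreated Trim47-/- and 49.8 ± 0.726 in untreated wild type (SD, n = 3 each). Rrm2 (32.1 to 48.1 CPM per kilobase over group means) and Umps (27.6 to 37.6) came next, and Tk1 (8.86 to 11.4) after them. Tyms stood at 5.90 to 8.12, Ung at 4.41 to 7.60, Tymp at 4.79 to 6.18 and Upp1 at 3.45 to 6.02, ranges that overlap each other. The length used here is the union of annotated exons. The authors' FPKM implies other lengths, 10435 bases for Tyms against a union of 6089, and places Tymp above Tyms, Ung and Upp1 in every group.

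The plot of both responses sets the 5-FU changes of the genotypes against each other. The interaction passed for 5 of the 8 genes, beside 54.9% of all genes, and for Upp1 and Tymp it lost its call without single libraries. Tyms, Umps and Dut rose in Trim47-/- and fell in wild type, though both changes of Tyms lost their call without single libraries. For Upp1, both genotypes fell, Trim47-/- by less. Rrm2 rose in both.

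**Figure D3:**
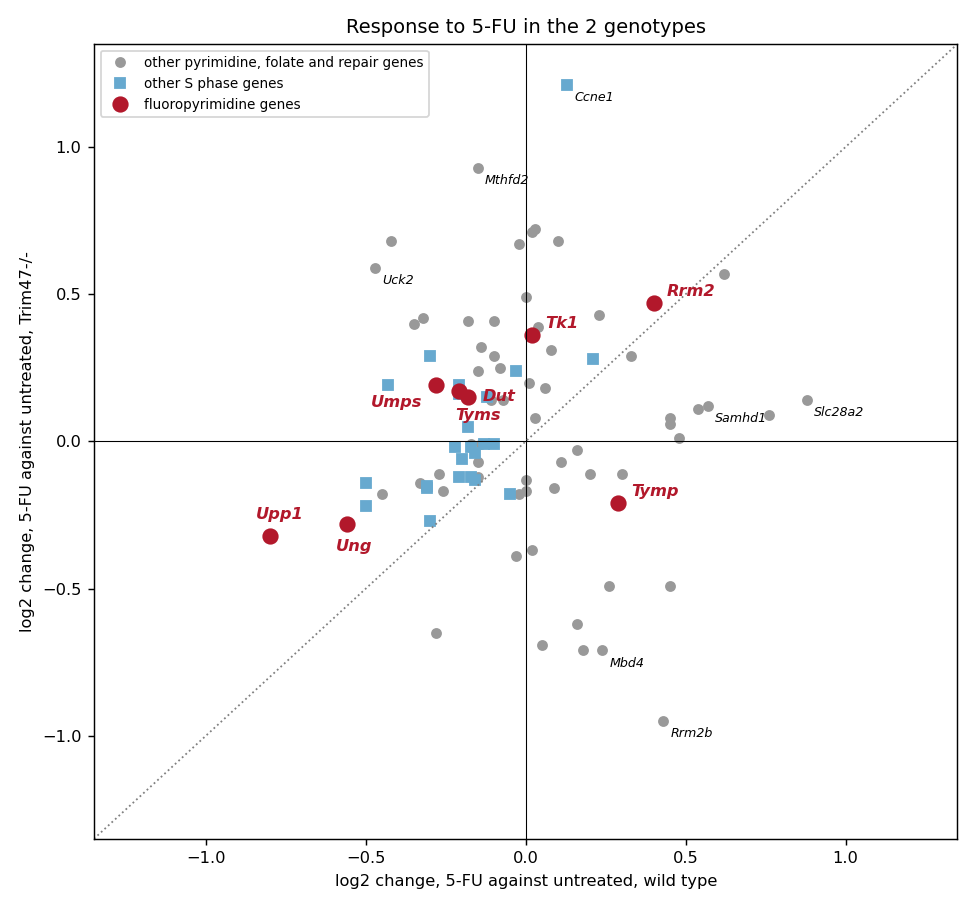
Log2 change with 5-FU in Trim47-/- (vertical axis) against that in wild type (horizontal axis) for the 8 measured genes (red), 24 other S phase genes (squares) and the other pyrimidine, folate and repair genes (grey). Nt5e and Upb1 lie beyond the axes, and on the dotted line both responses are equal. Tyms, Umps and Dut lie in the upper left part, Rrm2 in the upper right and close to the line.

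The other genes of drug handling were described by count. Of 12 measured genes of other activation steps, 7 were higher and 3 lower in Trim47-/- than in wild type after 5-FU (median 0.11). Of all genes, 27.2% were higher and 27.6% lower in that comparison. Uck2, a uridine-cytidine kinase that also phosphorylates fluorouridine, had 449 ± 7.34 CPM in Trim47-/- and 275 ± 13.9 CPM in wild type after 5-FU, against 298 ± 13.7 CPM in untreated Trim47-/- and 382 ± 17.4 CPM in untreated wild type (SD, n = 3 each). It was higher by 0.71 after 5-FU and lower by 0.36 when untreated (edgeR adjusted p = 1.52e-07 and 9.82e-05), and rose by 0.59 in Trim47-/- but fell by 0.47 in wild type with the drug. Its interaction of 1.07 (adjusted p = 8.59e-08) was larger than that of any of the 8 genes. Nme1, a nucleoside diphosphate kinase whose reads may be shared with the overlapping Gm20390, was higher by 0.54 after 5-FU, while Uckl1, which overlaps Zfp512b, was lower by 0.53.

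Of 6 tested genes listed under other breakdown steps, 2 were higher and 2 lower in Trim47-/- after 5-FU (median 0.25). Of all genes, 27.2% were higher and 27.6% lower in that comparison. Dpys and Cda fell below the filter on low counts. All of the 6 but Upb1 encode nucleotidases, and Upb1 stood at only 0.316 to 1.06 CPM over group means. These counts therefore describe nucleotidases in the main. Nt5e, the cell-surface nucleotidase CD73, stood at 4.05 ± 0.148 CPM in Trim47-/- and 1.14 ± 0.229 CPM in wild type after 5-FU, against 0.588 ± 0.0480 CPM in untreated Trim47-/- and 1.55 ± 0.212 CPM in untreated wild type. Its interaction was 3.21 (SE 0.244, adjusted p = 6.94e-07). Of 6 uptake and efflux genes, 2 were higher and 3 lower (median -0.14). Slc28a2, a concentrative nucleoside transporter, was lower in Trim47-/- after 5-FU by 0.68, and Abcg2, an efflux pump of stem cells, by 0.59.

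De novo synthesis supplies the uridylate pool with which 5-FU nucleotides compete. Of 5 genes listed for de novo pyrimidine synthesis, not all of which make uridylate, 2 were higher and 1 lower in Trim47-/- after 5-FU (median 0.09). Of all genes, 27.2% were higher and 27.6% lower in that comparison. Cad, which carries the first steps and precedes Umps in the pathway, was higher by 0.44 (SE 0.038, adjusted p = 1.92e-06), with 249.7 ± 5.74 CPM in Trim47-/- against 184 ± 5.53 CPM in wild type, and its interaction of 0.47 equalled that of Umps. Ctps, a CTP synthase, was higher by 0.39. Of 7 other genes of deoxynucleotide supply, 3 were higher and 4 lower (median -0.33). Rrm1, the large reductase subunit that pairs with Rrm2, was higher by 0.28. Rrm2b, the p53-induced small subunit that can replace Rrm2 outside S phase, was lower by 0.92 (SE 0.087, adjusted p = 4.23e-06), with 7.75 ± 0.750 CPM in Trim47-/- against 14.6 ± 0.837 CPM in wild type. So the small subunits changed in opposite directions in Trim47-/- with 5-FU, Rrm2 by 0.47 and Rrm2b by -0.95, while in wild type both rose, by 0.40 and 0.43.

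Thymidylate synthase draws its methyl group from the folate cycle. Of 13 folate genes tested, 7 were higher and 3 lower in Trim47-/- after 5-FU (median 0.22), beside 27.2% and 27.6% of all genes. Mthfd2, a mitochondrial folate dehydrogenase, was higher by 0.75, and rose by 0.93 with 5-FU in Trim47-/- (adjusted p = 2.29e-07). The mitochondrial enzymes Mthfd1l and Shmt2 were higher by 0.48 and 0.45. Beside Ung, of 12 genes of uracil and base excision repair 6 were higher and 2 lower after 5-FU (median 0.27). Pcna, Parp1 and Apex1 were higher by 0.31, 0.25 and 0.34. Mbd4, another glycosylase that acts on uracil, was lower in Trim47-/- than in wild type after 5-FU, with a log2 change of -0.68.

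**Figure D4:**
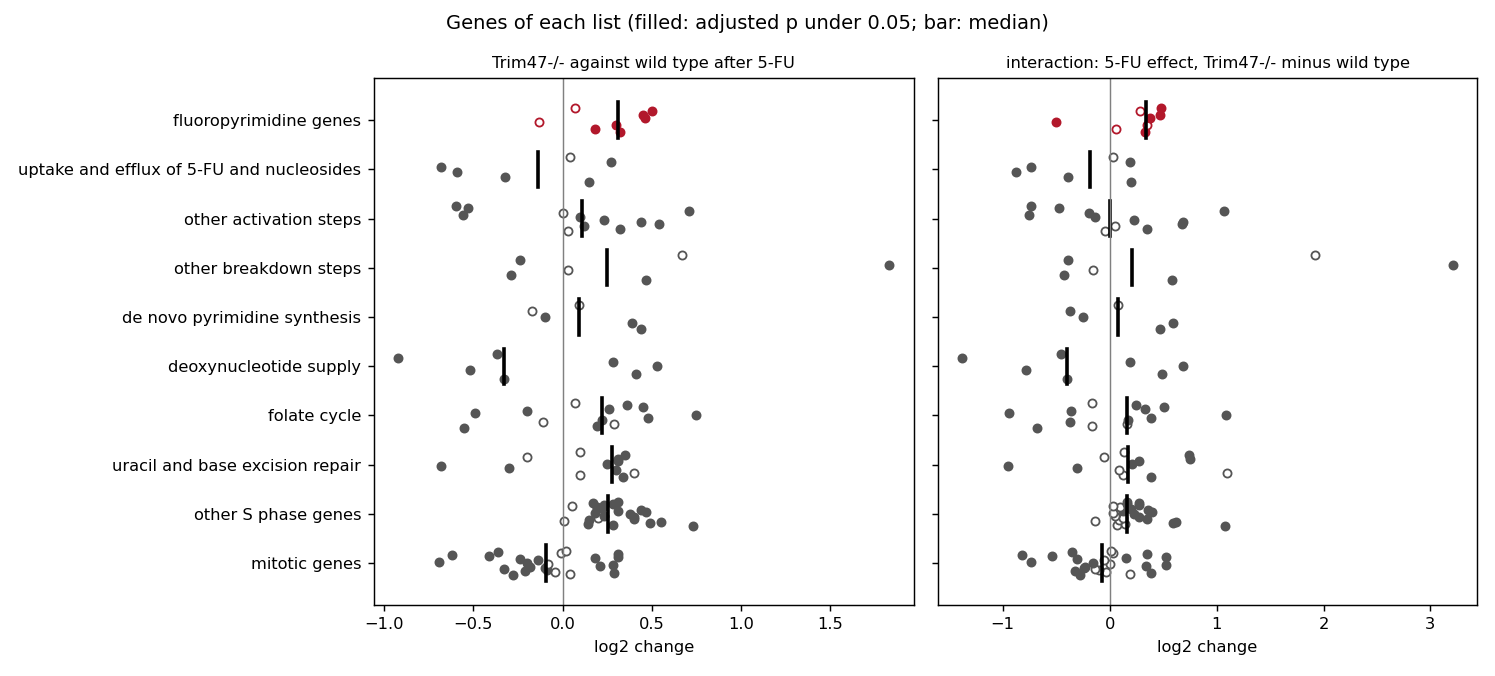
Log2 change of each tested gene of the 8 measured genes (red) and of the pathway lists (rows) for Trim47-/- against wild type after 5-FU (left) and for the interaction (right), filled where the adjusted p was under 0.05, with a bar at the median of each row. After 5-FU the row of S phase genes holds 21 filled points above 0 and none below, beside 27.2% and 27.6% of all genes. The mitotic row has filled points on both sides.

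Several of the 8 genes are transcribed in S phase, and 24 other S phase genes were counted beside them. Of these, 21 were higher in Trim47-/- than in wild type after 5-FU and 0 lower (median 0.25), beside 27.2% and 27.6% of all genes. In wild type 17 of 24 were lower after 5-FU and 0 higher (median -0.19), beside 25.4% and 25.2% of all genes. With 5-FU in Trim47-/-, 7 were higher and 9 lower (median -0.02), against 5 higher and 1 lower of the 8 genes (median 0.16). Of all genes, 29.6% were higher and 30.8% lower there. With total counts only, the wild-type count was 11 lower and 2 higher (median -0.09), beside 3165 lower and 5762 higher of all genes. No S phase gene passed as lower in Trim47-/- than in wild type after 5-FU under any alternative run, the DESeq2 test included. Mcm5, a helicase subunit, was higher by 0.47 after 5-FU (SE 0.0188, adjusted p = 4.2e-09), and Cdt1, a licensing factor that overlaps Gm20388, by 0.55. The summed level of the 24 genes was 3417 ± 39.2 CPM in Trim47-/- after 5-FU, 2757 ± 9.66 CPM in wild type after 5-FU, 3423 ± 34.6 CPM in untreated Trim47-/- and 3187 ± 20.9 CPM in untreated wild type (SD, n = 3 each). Of 24 mitotic genes, 6 were higher and 13 lower in Trim47-/- after 5-FU (median -0.09), with Mki67 at 0.31 and Hmmr at -0.69.

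Expressed as a percentage of that S phase sum, a ratio chosen with the levels known, Tyms made up 1.45% ± 0.0621 in Trim47-/- and 1.30% ± 0.101 in wild type after 5-FU, without overlap (SD, n = 3 each). Dut made up 3.87% ± 0.139 in Trim47-/- and 3.84% ± 0.0598 in wild type and overlapped. Umps, at 3.84% ± 0.00706 in Trim47-/- against 3.49% ± 0.125 in wild type, stayed higher without overlap, whereas Rrm2, at 3.90% ± 0.0219 in Trim47-/- against 4.27% ± 0.0613 in wild type, was lower. Tk1 and Ung overlapped. With 5-FU in Trim47-/-, the percentages of Tyms, Umps, Dut, Tk1 and Rrm2 were 1.13, 1.14, 1.11, 1.29 and 1.38 times the untreated ones and that of Ung 0.825 times, all without overlap. The S phase sum was nearly equal in the Trim47-/- groups (3417 and 3423 CPM), so these ratios largely restate the changes in CPM. In wild type the percentage of Rrm2 was 1.53 times the untreated one, without overlap, and the other 5 genes overlapped. Between untreated genotypes, Umps and Dut stood at 0.920 and 0.926 times wild type in Trim47-/-, without overlap, and the other 4 overlapped. With 3 libraries a group a two-sided exact permutation test cannot go below p = 0.1, the value of each of these ratios without overlap. The share of all genes without overlap on this ratio was not computed. On CPM it was 61.3% between genotypes after 5-FU and 47.9% between untreated genotypes. With 5-FU it was 66.6% in Trim47-/- and 58.9% in wild type. Helicase genes weigh heavily in the sum, with Mcm6 at 481 ± 14.2 and Mcm5 at 418 ± 4.82 CPM in Trim47-/- after 5-FU. The part of cell cycle state in the changes of single genes was not tested.

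Markers of other cells also moved with the groups. For Trim47-/- against wild type after 5-FU, 27.2% of all genes were higher and 27.6% lower. All 8 monocyte and macrophage markers were higher in Trim47-/- after 5-FU (median 1.22), with a summed level of 939.5 to 959 CPM in Trim47-/- and 522 to 531 CPM in wild type after 5-FU, against 376 to 395 CPM in untreated Trim47-/- and 546 to 574 CPM in untreated wild type. All 8 neutrophil markers were higher as well (median 0.76), at 5821 to 6222 CPM in Trim47-/- and 3604 to 3676 CPM in wild type after 5-FU, against 2922 to 2966 CPM in untreated Trim47-/- and 2959.8 to 3105 CPM in untreated wild type. Of 10 LT-HSC markers 9 were lower and 0 higher (median -1.11), with a sum of 638 to 713 CPM in Trim47-/- and 1036 to 1193 CPM in wild type after 5-FU, against 1174 to 1289.8 CPM in untreated Trim47-/- and 1059 to 1155 CPM in untreated wild type. No LT-HSC marker was at 0 in a group, and among the defining markers of the other types Xcr1 alone was at 0, in Trim47-/- after 5-FU.

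In the same comparison, 0 of 8 erythroid markers were higher and 5 lower (median -0.28), 0 of 6 megakaryocyte and platelet markers higher and 6 lower (median -0.48), and 0 of 7 lymphoid markers higher and 4 lower (median -1.00). Of 5 dendritic markers 1 was higher and 1 lower (median 0.32). Of 5 endothelial and stromal markers 0 were higher and 3 lower (median -0.69). These counts stand beside 27.2% higher and 27.6% lower of all genes. Erythroid markers summed to 304 to 314 CPM in Trim47-/- and 350.3 to 365 CPM in wild type after 5-FU, against 134 to 139 CPM in untreated Trim47-/- and 86.3 to 89.0 CPM in untreated wild type. Of all genes, 29.6% were higher and 30.8% lower with 5-FU in Trim47-/-, and 25.2% and 25.4% in wild type. With 5-FU, 6 of 8 erythroid markers were higher and 1 lower in Trim47-/-, and 8 of 8 higher in wild type. Neutrophil markers were higher in 8 of 8 cases in Trim47-/- and 7 of 8 in wild type, and megakaryocyte markers in 5 of 6 in each genotype, with 1 lower in wild type. In these bulk libraries a change in the share of a cell type and a change in RNA per cell cannot be told apart, and the part of cell composition in the levels of the 8 genes was not tested.

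The genes whose levels followed each member most closely over the 12 libraries were sought among 9290 genes averaging 10 CPM or more, by Pearson's r of log2(CPM + 1). All points share 4 groups, so these values describe group patterns and carry no test. Rrm2 was matched by Lcn2 (r = 0.997), a neutrophil granule gene, and Gda (0.996). Dut was matched by Raly (0.991) and Bbc3 (0.985), Umps by Nedd9 and Ubald1 (0.988 each), Tyms by Wdr70 (0.94) and the folate gene Mthfd1l (0.939). For Ung they were Tcf12 (0.987) and Tgif2-ps2 (0.917), for Upp1 Gnaq (0.969) and Zfp292 (0.96), for Tk1 Rnf115 (0.926) and Ttc1 (0.92), and for Tymp Cog1 (0.941) and Erg28 (0.886).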

How the data were processed

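The 12 libraries were made from poly-A RNA with a stranded mRNA kit, per the labels' protocols, and samples were grouped by their titles. The deposited table holds a whole-number count per gene and library, not normalised by the authors, and FPKM values per the file headers. The build GRCm38 and the tools HISAT2, StringTie, edgeR and CASAVA 1.8 are named in the submitters' processing notes, without roles. Which tool counted, with which strand setting and which annotation, was not given in the sources used here, and reads of overlapping or antisense genes may not be told apart. Count divided by FPKM, scaled by library total, gave 1 length per gene (largest deviation 0.00166% over 11212 genes of 50 counts or more per library), and the deposited FPKM served only to compare levels per length. Annotation of 28923 of 28999 identifiers came from GENCODE M21.

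The test was edgeR's quasi-likelihood test (version 4.0.16, R 4.3.3) on the counts, with TMM scaling and edgeR's own filter on low counts by group, with all 12 libraries in 1 fit and Benjamini-Hochberg adjustment over 16319 genes. The members and lists were chosen with earlier results of these data known, and some lists follow the same earlier work. Named genes were all 9 members, Trim47, up to 3 passing genes per list and comparison with the smallest p, and the 2 genes of most similar pattern per member. Genes named beyond these in sentences on overlaps were chosen for their position. The 9 pathway and 8 marker lists are described by counts and medians. Alternatives were DESeq2 size factors in edgeR, total counts only, the DESeq2 1.42.0 test, no filter, a replicate block, only the 6 libraries compared, a test against 1.5-fold, an adjusted p under 0.01 and each library left out in turn. The procedure was tested on simulated counts with 50 genes changed at each size. Of those changed 1.25-fold, 20% passed for Trim47-/- against wild type after 5-FU and 8% for the interaction. Of those changed 1.5-fold, 78% and 56% did. Far fewer genes changed there than passed in the data, so these shares need not hold for the 8 genes. Promoter sequences came from RefSeq (GRCm38.p6), and numbers were handled in Python 3.11.15 with pandas 2.3.3, numpy 2.4.6, scipy 1.17.1 and matplotlib 3.10.9.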

Additional observations from a re-analysis of the deposited data

Results flagged for a closer look

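The response to 5-FU differed between Trim47-/- and wild type, by the interaction test of edgeR over all 12 libraries, for 5 of the 8 measured genes and for the genes of the other lists named below. Values are log2 changes with 5-FU in Trim47-/- minus those in wild type, and 54.9% of all genes tested passed this test. The interaction was 0.38 for Tyms, 0.47 for Umps, 0.48 for Upp1, 0.33 for Dut and -0.50 for Tymp. For Tyms, Umps and Dut the groups of libraries moved in opposite directions in the genotypes. Both single responses of Tyms lost their call without single libraries, while its interaction did not. The interactions of Upp1 and Tymp lost their call without single libraries, as given with the results on these genes.

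Only the 3 passing genes of smallest p are named per list, beside the list's counts of genes that passed. Of all genes, 26.4% passed with a positive and 28.5% with a negative interaction. In de novo synthesis 2 of 5 tested genes were positive and 2 negative, with 0.59 for Ctps, 0.47 for Cad and -0.25 for Ctps2. In deoxynucleotide supply 3 of 7 were positive and 4 negative, with -1.38 for Rrm2b, -0.46 for Samhd1 and -0.40 for Dck. In the folate cycle 6 of 13 were positive and 4 negative, with 1.09 for Mthfd2, 0.51 for Shmt2 and 0.39 for Mthfd1l. Among other activation steps 5 of 12 were positive and 5 negative, with 1.07 for Uck2, 0.68 for Nme1 and -0.74 for Uprt. In the breakdown list 2 of 6 were positive and 2 negative, with the nucleotidases Nt5e at 3.21, Nt5c at 0.58 and Nt5c3 at -0.43. Of 6 transport genes 2 were positive and 3 negative, with -0.88 for Abcg2, -0.74 for Slc28a2 and -0.39 for Abcc5. Of 12 repair genes 5 were positive and 2 negative, with -0.95 for Mbd4, 0.75 for Polb and 0.27 for Pcna. Of 24 S phase genes 15 were positive and 0 negative, with 1.08 for Ccne1, 0.62 for Cdt1 and 0.40 for Mcm5. Of 24 mitotic genes 6 were positive and 10 negative, with 0.53 for Mki67, -0.74 for Hmmr and -0.82 for Plk1.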

How the results depend on the processing

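Each of the 8 genes was recomputed in 5 comparisons under 8 other settings and with each of the 12 libraries left out. With DESeq2 size factors in edgeR all 40 results kept their direction and call. In the DESeq2 test 36 of 40 did, with no filter on low counts 36 of 40, with only the 6 libraries compared 29 of 32, with total counts only 33 of 40, at an adjusted p under 0.01 33 of 40, and with single libraries left out 442 of 480. In the test against a 1.5-fold change the count of the 8 genes called was 0 in every comparison, and the counts of all genes called were 1415 for Trim47-/- against wild type after 5-FU, 450 untreated, 2422 for 5-FU in Trim47-/-, 1602 for 5-FU in wild type and 2913 for the interaction. In untreated libraries, Tymp and Rrm2 lost their call in the DESeq2 test (adjusted p = 0.0676 and 0.0581). With only the 6 libraries compared in edgeR they lost it as well (0.0885 and 0.0541). Of all genes, 3391 were called there at an adjusted p under 0.01, against 5392 at 0.05. For the interaction, Upp1 and Tymp lost their call at an adjusted p under 0.01 (edgeR adjusted p = 0.0192 and 0.031).

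With total counts only, the direction turned for Upp1 after 5-FU (-0.01), Rrm2 in the interaction (-0.03), Dut untreated (0.01) and Umps untreated (0). The untreated Dut difference was also 0 with no filter and without wild-type replicate 2 or Trim47-/- replicate 2, in a range of -0.03 to 0.01 over all alternatives. The untreated Tk1 difference was 0.06 without wild-type replicate 1, in a range of -0.11 to 0.06 with single libraries left out. Tk1 in wild type with 5-FU was -0.05 to -0.02 without untreated replicate 2 or 3 or 5-FU replicate 1 or 2 (-0.05, -0.02, -0.03 and -0.03), in a range of -0.05 to 0.12 with single libraries left out. None of these had passed the test. The cause was not tested.

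Replicate numbers showed no clear pairing of the libraries, though this check cannot exclude one. Deviations of same-numbered libraries correlated at -0.13 to 0.14 over 18 pairs, 5 of them over 0.1, and 6 of 12 libraries correlated best with their own number. With the replicate number as a block, 39 of 40 results kept their call and Tymp with 5-FU in wild type passed (0.29, adjusted p = 0.0323). Counts were lowest for Upp1 and Tymp, at 97 to 296 per library.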
